A study of Mus musculus with 60 samples.

Results

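Interferon-stimulated genes (ISGs) were followed through every group of a mouse fibroblast RNA-seq study of partial reprogramming and TGFb pathway inhibition. The set held 35 genes, listed by symbol and matched to Ensembl identifiers in both deposited count tables, of 56980 identifiers in each table. After a filter on low counts, 34 of the 35 members were among the 15832 genes tested in the reprogramming table and 31 were among the 15164 tested in the inhibitor table. Mx1 passed neither filter, and Oas1a, Oas2 and Oas3 did not pass in the inhibitor table, so these genes are given there as counts or levels only.

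ISGs are the genes that a cell turns on when secreted interferon binds its receptor. Type I interferons signal through the IFNAR1/IFNAR2 receptor and the kinases JAK1 and TYK2 to a complex that holds STAT2 and IRF9 and binds the interferon-stimulated response element, a motif built from paired GAAA units in the promoters of these genes. Fibroblasts respond readily to interferon and also express ISGs at a low level without infection. The members were grouped by role as secreted ISGs and chemokines (Isg15, Cxcl10, Ccl5), IFIT proteins that bind foreign RNA (Ifit1, Ifit2, Ifit3, Ifit3b), transcription factors (Irf7, Irf9, Stat2), MX GTPases (Mx1, Mx2), the OAS family of double-stranded RNA sensors and their relatives (Oas1a, Oas2, Oas3, Oasl1, Oasl2), nucleic acid sensors (Ddx58, Ifih1, Dhx58, Zbp1), the ISG15 pathway and ubiquitin (Usp18, Trim25), PARPs (Parp9, Parp14), guanylate-binding proteins (Gbp2, Gbp3) and other antiviral effectors (Rsad2, Cmpk2, Bst2, Ifi44, Ifi27, Ifi35, Rtp4, Xaf1).

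The reprogramming table held 36 libraries, 3 a group, from fibroblasts with doxycycline-inducible OSKM factors (Oct4, Sox2, Klf4 and c-Myc). The study gives a Col1a1-tetO-OKSM transgene with ROSA26-M2-rtTA for its Ercc1 model. It describes its Oct4-EGFP wildtype cells separately, as coming from mice with an OSKM and EGFP cassette at Col1a1. D/KO cells, labelled 4FJ_ERCC1_(d/-), came from a male of 8 weeks with a truncated and a null allele of the DNA repair gene Ercc1, and WT cells, labelled 4FJ_(+/-)_OCT4-GFP, came from a female of 22 weeks. Each was sampled at day 0 without doxycycline and at day 2 and day 4 of 2 µg/ml doxycycline, with or without VC. VC is ascorbic acid at 50 µg/ml plus the GSK3 inhibitor CHIR99021 at 3 µM. The study's methods do not say how long the day 0 plus VC cells were held in VC. The inhibitor table held 24 libraries in groups of 3, for which the labels name no doxycycline time. D/KO cells of a female of 4 weeks, labelled ERCC1_(d/-), were left untreated or given the TGFb receptor inhibitors Repsox or Vactosertib at 0.1 µM, the TGFb receptor inhibitor A83-01 at 1 µM, or the BMP receptor inhibitor DMH-1 at 1 µM for 3 days. The study counts Vactosertib among its inhibitors of the TGFb receptor ALK5, and also calls it a dual inhibitor that acts on the BMP receptor ALK2. The table also held untreated tail tip and skin fibroblasts labelled ERCC1_(+/+)_WT from a female of 14 weeks, and a group of the 22-week 4FJ_(+/-)_OCT4-GFP line labelled TGFB. Genotype, age and line changed together in every D/KO to WT contrast, with sex and the described OSKM cassette as well in the reprogramming table, and cannot be told apart. Each such contrast set 1 line against 1 other, and the study names triplicate cell samples without saying whether they were separate cultures, so p-values measure only the spread between these libraries, which may be technical.

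Library totals were 16538374 to 18484951 counts in the reprogramming table and 17102639 to 30599138 in the inhibitor table. Ercc1 itself read 8.03 to 18.6 CPM in the 18 D/KO and 16.8 to 29.1 CPM in the 18 WT reprogramming libraries, and D/KO cells of the inhibitor table read 13.2 to 23.5 CPM against 13.3 to 21.7 CPM in WT tail tip. The Ercc1 ranges overlapped between genotypes in both tables, and total gene counts do not separate the truncated transcript from the full one. All libraries held high fibroblast markers (summed level of 8 genes at least 32853 CPM). Endothelial markers stood at 557 to 626 CPM summed in D/KO day 0 and at 14.5 to 17.2 CPM in WT day 0, so the D/KO reprogramming line carried endothelial transcripts that the WT line carried little of. In bulk RNA, fewer responding cells and less RNA per cell cannot be told apart.

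The promoters of these genes show what the members share beyond their names. RefSeq promoters (250 bases before to 50 after the start, build GRCm38.p6) were at hand for 24 of the 35 members. The motif GAAANNGAAA, searched on both strands with overlapping matches counted, lay in the promoters of 14 of these 24 genes (58.3%) and of 3.99% of all 27025 genes with a promoter. Below are 4 promoters that hold it and that of Irf7, which does not, each 5′ to 3′ on its gene's strand with the GAAA units in capitals. They are shown because Isg15, Ifit1, Oas1a and Irf7 all rose with VC in WT cells at day 0, Irf7 without the motif, and because Gbp2 fell in D/KO cells at day 4 with VC, where Ifit1 and Oas1a rose.
Isg15 (chr4:156200769-156201068, - strand, GRCm38.p6): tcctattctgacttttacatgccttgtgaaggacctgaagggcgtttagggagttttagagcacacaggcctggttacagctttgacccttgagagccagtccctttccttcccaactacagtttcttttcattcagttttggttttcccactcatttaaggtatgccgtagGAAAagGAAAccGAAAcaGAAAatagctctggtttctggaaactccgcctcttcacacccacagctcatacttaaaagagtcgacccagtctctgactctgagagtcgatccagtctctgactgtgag
Ifit1 (chr19:34640639-34640938, + strand, GRCm38.p6): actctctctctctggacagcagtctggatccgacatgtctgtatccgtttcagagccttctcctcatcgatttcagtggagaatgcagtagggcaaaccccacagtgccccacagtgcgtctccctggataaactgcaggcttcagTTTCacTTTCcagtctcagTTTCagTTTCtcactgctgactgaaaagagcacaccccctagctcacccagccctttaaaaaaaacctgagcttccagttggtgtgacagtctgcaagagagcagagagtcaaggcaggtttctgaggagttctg
Oas1a (chr5:120907476-120907775, - strand, GRCm38.p6): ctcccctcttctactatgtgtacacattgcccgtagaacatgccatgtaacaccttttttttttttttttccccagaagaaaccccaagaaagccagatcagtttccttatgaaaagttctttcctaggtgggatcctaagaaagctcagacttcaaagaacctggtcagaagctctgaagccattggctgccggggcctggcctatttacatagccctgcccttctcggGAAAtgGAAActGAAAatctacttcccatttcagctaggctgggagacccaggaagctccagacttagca
Gbp2 (chr3:142620413-142620712, + strand, GRCm38.p6): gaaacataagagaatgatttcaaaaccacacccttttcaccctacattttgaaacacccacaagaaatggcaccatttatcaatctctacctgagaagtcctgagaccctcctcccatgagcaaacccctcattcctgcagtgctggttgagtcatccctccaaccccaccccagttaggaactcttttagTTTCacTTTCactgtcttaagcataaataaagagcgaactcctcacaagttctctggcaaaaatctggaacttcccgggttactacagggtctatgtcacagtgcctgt
Irf7 (chr7:141266375-141266674, - strand, GRCm38.p6): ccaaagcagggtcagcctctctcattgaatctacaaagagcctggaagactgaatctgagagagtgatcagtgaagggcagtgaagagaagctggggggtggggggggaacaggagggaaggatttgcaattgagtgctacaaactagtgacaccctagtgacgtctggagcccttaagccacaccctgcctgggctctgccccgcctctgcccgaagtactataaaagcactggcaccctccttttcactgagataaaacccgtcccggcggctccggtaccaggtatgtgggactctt

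In the Isg15 promoter 3 overlapping matches formed a run of GAAA units starting 78 bases before the start. Ifit1 held 2 matches from 104 bases before the start, Oas1a 2 from 20 bases before it, and Gbp2 1 at 59 bases before it, written on the opposite strand in Ifit1 and Gbp2. A match is a description of these letters and not a shown binding site. The genes themselves lie, in GRCm39, on chromosome 4 from 156283912 to 156285253 (Isg15), on chromosome 19 from 34618271 to 34627409 (Ifit1), on chromosome 5 from 121034319 to 121045584 (Oas1a), on chromosome 3 from 142326363 to 142343769 (Gbp2) and on chromosome 7 from 140842619 to 140846394 (Irf7). All are protein coding, and each was counted over its exons. Whether the counting used strand is not given in the sources used here, and Irf7 overlaps Phrf1, Ifit1 overlaps Ifit1bl2 and Oas1a overlaps Oas1d on the other strand, so reads from these partners cannot be told apart.

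At day 0 without VC the set was low but detected in both lines. Ifi27, which encodes a small membrane protein, had the highest level per length (CPM per kb of exon), at 73.9 in D/KO and 91.5 in WT reprogramming cells and 71.8 in D/KO cells of the inhibitor table. Bst2, which encodes the virus-tethering protein tetherin, was next in all 3 groups at 16.2, 18.8 and 13.8 CPM per kb. At the other end Oas3 and Mx1 were at 0 counts in D/KO cells of both tables at baseline. Mx1 is non-functional in most laboratory mouse strains. Summed over all 35 members, the level was 346 to 442 CPM in D/KO day 0, 597 to 612 CPM in WT day 0 and 364 to 373 CPM in the untreated D/KO cells of the inhibitor table.

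**Figure D1:**
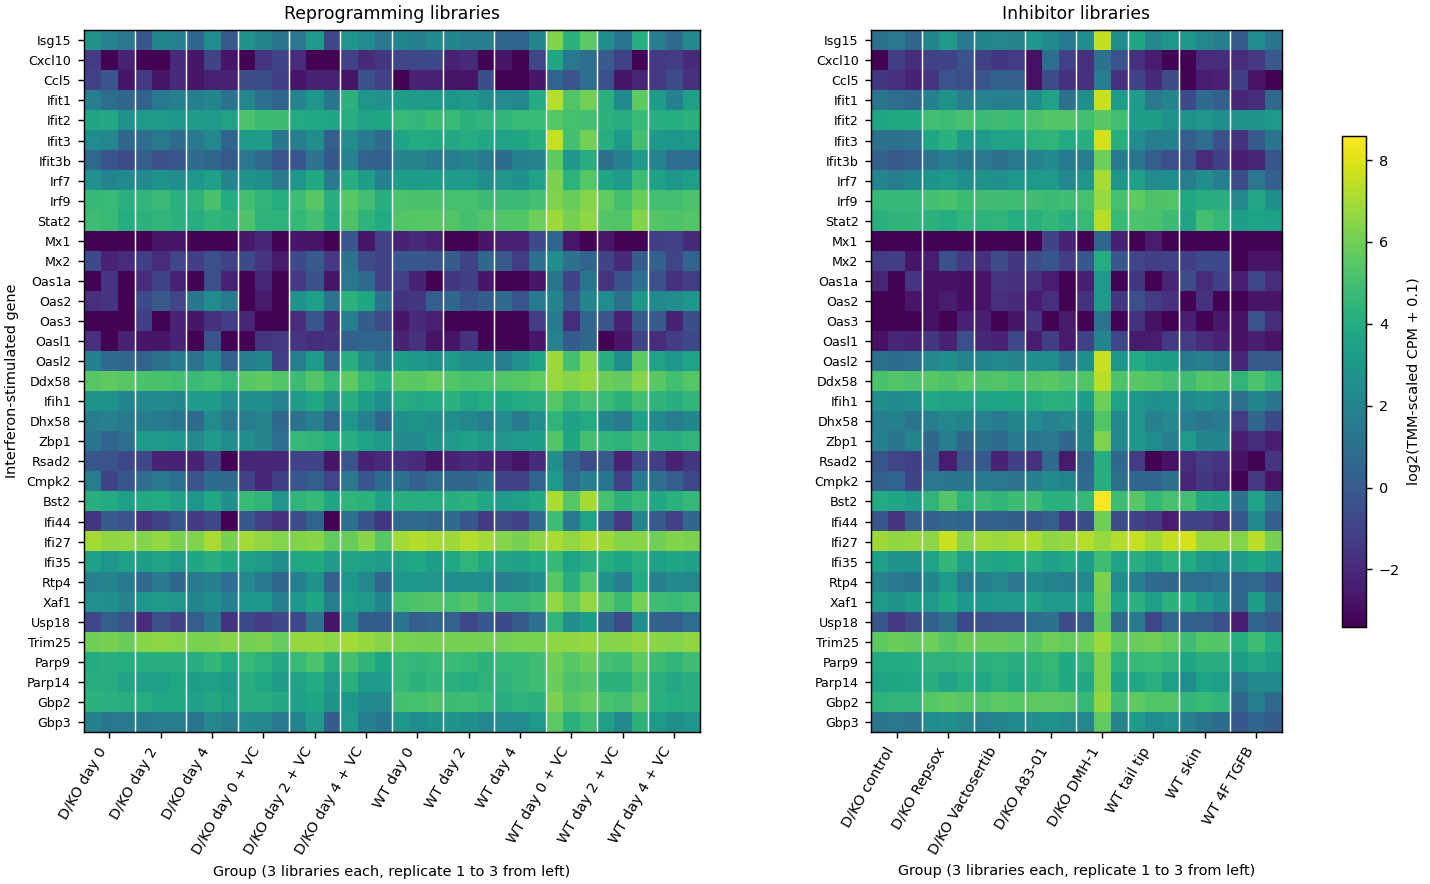
Levels of the 35 members (rows) as log2(TMM-scaled CPM + 0.1) in each of the 60 libraries (columns, 3 a group in replicate order, reprogramming groups in the left panel and inhibitor groups in the right). The second DMH-1 column is the brightest of its panel across most rows. In the left panel the highest summed level is in a WT day 0 plus VC column (2004 CPM). The lowest column of that group (939 CPM) is below the highest WT day 2 plus VC column (1005 CPM). Ifi27, Trim25 and Ddx58 are high in most columns.

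In several groups a single library was the highest of its group for most members. In WT day 4, the third library was the highest of the group for 32 of 34 members, while 32.4% of all 15832 genes tested were highest there. In D/KO day 4 plus VC the first library was highest for 31 of 34 members (38.1% of all genes), in D/KO day 2 plus VC the second for 30 (34.3%), in WT day 2 plus VC the third for 29 (33.9%) and in D/KO day 4 the second for 28 (37.5%). Isg15, which encodes a ubiquitin-like protein, shows the size of this spread, with 2.43, 8.76 and 0.503 CPM in the 3 D/KO day 2 plus VC libraries. Within WT day 2 plus VC the median member was 3.84-fold higher in its highest library than in its lowest (pseudocount 0.1 CPM), against 1.25-fold for the median gene. The smallest spread of members was in WT day 0, at 1.24-fold against 1.201-fold for the median gene. The standard errors below carry this spread, and small differences on the log2 scale were not detectable for most members.

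**Figure D2:**
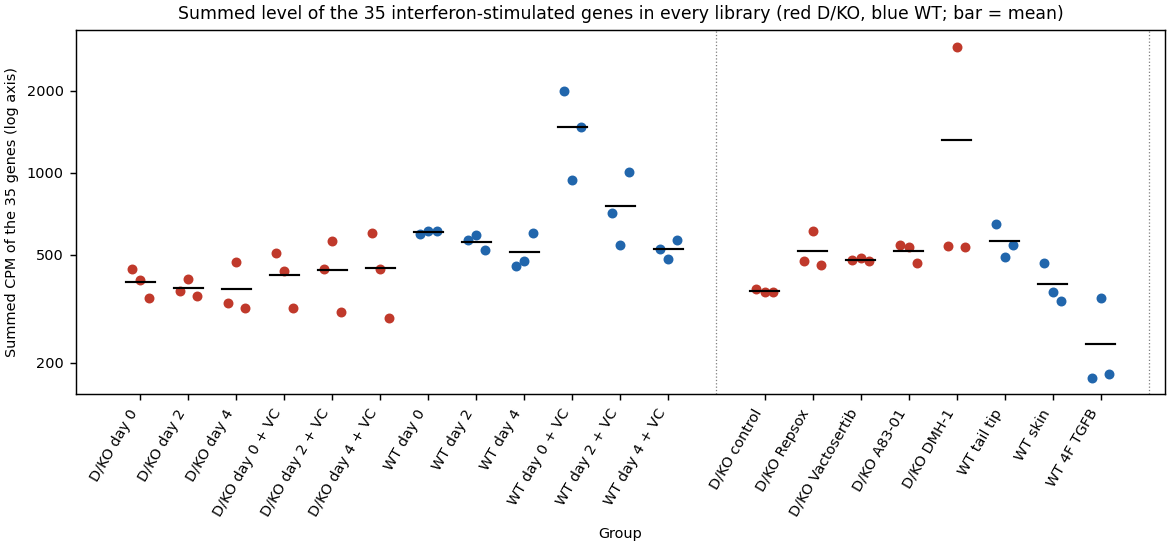
Summed level of the 35 members (CPM, log axis) in each of the 60 libraries, by group, with points for libraries and a bar at the group mean. The second DMH-1 library (2901 CPM) and the WT day 0 plus VC libraries at 2004 and 1469 CPM stand above the rest. The remaining WT day 0 plus VC library (939 CPM) lies below the highest WT day 2 plus VC library (1005 CPM). The other 2 DMH-1 libraries lie at 533 and 536 CPM.

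The set was higher with VC alone than without it in WT cells at day 0. Of 34 members tested, 31 rose from day 0 to day 0 plus VC and none fell, in a comparison where 29.4% of all genes tested were called (edgeR's quasi-likelihood test, Benjamini-Hochberg adjusted p under 0.05 over all genes). Cxcl10, 1 of the 31, passed the filter on low counts only with the WT day 0 plus VC libraries in the table, so its rise here, and its falls from that group given below, were fixed by the filter and count as no support. The median member log2 fold change was 2.28, and the median over all genes was 0. Isg15 was at 4.03, 3.38 and 4.85 CPM at day 0 and at 81.3, 19.0 and 48.0 CPM with VC, so that the groups did not overlap, and its log2 fold change was 3.59 ± 0.66 (SE, adjusted p = 6.68e-05). Ifit1, which binds RNA lacking self marks, went from 9.83, 9.18 and 9.34 to 153, 40.3 and 66.9 CPM (3.20 ± 0.57, adjusted p = 3.48e-05).

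The regulators of the response rose with its effectors. Irf7, the factor that amplifies interferon production, was at 9.99, 9.34 and 9.60 CPM without VC and 75.7, 20.7 and 42.6 CPM with it. Stat2 went from 41.7, 43.3 and 44.6 to 116, 70.7 and 93.0 CPM and Irf9 from 37.3, 36.02 and 35.2 to 77.0, 56.7 and 84.5 CPM, both parts of the DNA-binding complex. The log2 fold changes were 1.11 ± 0.27 for Stat2 and 1.01 ± 0.27 for Irf9. Of the sensors, Zbp1, which binds Z-form nucleic acid, rose by the most, from 4.69, 4.88 and 6.84 to 41.6, 12.5 and 32.8 CPM (2.40 ± 0.31, adjusted p = 1.85e-07). Ifih1 (MDA5) and Ddx58 (RIG-I) rose by 1.11 ± 0.27 and 0.99 ± 0.22.

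Effectors of each further role rose as well. Bst2 went from 18.1, 17.0 and 16.0 to 141, 43.4 and 127 CPM (2.61 ± 0.37). Usp18, the protease that removes ISG15 and dampens receptor signalling, went from 2.37, 1.02 and 1.33 to 22.1, 5.59 and 9.95 CPM (2.99 ± 0.70). Oasl2 went from 9.72, 8.00 and 6.58 to 117, 33.5 and 82.2 CPM (3.26 ± 0.61). Xaf1, with day 0 levels of 34.2, 39.2 and 39.9 CPM, reached 102, 53.7 and 99.4 CPM (1.17 ± 0.30). For all 4 genes the groups were apart, with the second VC library always the nearest to day 0. Among the guanylate-binding proteins, GTPases that act on pathogen membranes, Gbp2 rose from 33.8, 33.9 and 37.6 to 74.96, 45.3 and 55.0 CPM (0.73 ± 0.18) and Gbp3 by 2.31 ± 0.45. Trim25, which adds ubiquitin to RIG-I, had the smallest called rise, from 71.9, 69.7 and 69.8 to 95.6, 97.4 and 103 CPM (0.49 ± 0.11).

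Of the 5 largest fold changes, 4 belonged to genes near the detection floor at day 0. The chemokine Ccl5 (4.05 ± 0.95), the radical SAM enzyme Rsad2 (viperin, 4.03 ± 0.86), Oasl1 (3.97 ± 0.93) and Oas3 (3.66 ± 1.09) all had day 0 levels of at most 0.221 CPM, and Isg15 was the fifth. Rsad2 read 0.221, 0.161 and 0.051 CPM without VC and 5.56, 1.23 and 0.531 CPM with it. The untested Mx1 read 0.110, 0.161 and 0.102 CPM without VC and 1.33, 0.0614 and 0 CPM with it, so only the first library was above day 0. The 3 tested members that did not pass were Ifi27 (-0.10 ± 0.21), Cmpk2 (1.46 ± 0.57, adjusted p = 0.052) and Ifi35 (0.59 ± 0.24, adjusted p = 0.057). Ifi27 was the member with the highest level already at day 0.

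The WT day 0 plus VC libraries disagreed in size but not in the direction of the summed level. Their summed member levels were 2004, 939 and 1469 CPM, each above the 597 to 612 CPM of WT day 0. The first library was highest for 28 of 34 members, the third for 6 and the second for none. Without the first library 25 members were called higher (23.9% of all genes called), without the second 33 (27.3%) and without the third 30 (21.8%), with a median log2 fold change of 1.82 without the first and 2.58 without the second. Macrophage markers summed to 82.4 to 155 CPM in WT day 0 and 74.3 to 125 CPM with VC, and none of the 8 was called. Other marker sums changed with VC without overlap. Fibroblast markers went from 51454 to 53259 CPM up to 154768 to 170525 CPM, with 5 of 8 called higher. Endothelial markers went from 14.5 to 17.2 CPM down to 4.67 to 7.07 CPM, with 1 of 5 called lower, Schwann cell markers from 3.22 to 3.38 CPM down to 0.947 to 1.17 CPM, with 2 of 4 called lower, and T cell markers from 1.82 to 2.68 CPM down to 0 to 0.379 CPM, with the 1 tested called lower. Their part in the ISG changes was not tested.

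In D/KO cells at day 0, 2 members passed the test with VC. Ifit2 rose (1.46 ± 0.19, adjusted p = 1.44e-07) and Cmpk2, a mitochondrial nucleotide kinase, fell (-2.17 ± 0.79, adjusted p = 0.0383) among 34 members tested, with 26.1% of all genes called. Ifit2 was at 12.6, 14.4 and 6.77 CPM without VC and 36.4, 28.4 and 28.4 CPM with it, with no overlap, whereas Isg15 was at 6.38, 3.64 and 2.53 against 6.54, 4.07 and 2.31 CPM (0.06 ± 0.71). Cmpk2 was not called without the first day 0 library or without any of the day 0 plus VC libraries. The median member log2 fold change was 0.05. Marker sums changed with VC in D/KO cells too, these without overlap. Fibroblast sums went from 79374 to 118355 CPM up to 182952 to 252416 CPM. Endothelial sums went from 557 to 626 CPM down to 189 to 226 CPM, and T cell sums from 2.00 to 2.77 CPM down to 0.0701 to 0.678 CPM. The part of these markers in the ISG changes with VC was not tested.

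The response to VC at day 0 differed between the lines for 17 of 34 members by edgeR's test of the difference, a comparison added after seeing the data, with 15.3% of all genes called. It was more negative in D/KO for 16 of them, led by Rsad2 (-6.19 ± 1.28), Usp18 (-3.78 ± 1.204), Ifi44 (-3.71 ± 1.27), Ccl5 (-3.71 ± 1.28) and Cmpk2 (-3.63 ± 0.97), and more positive for Ifit2 (0.93 ± 0.26). Isg15 (-3.53 ± 0.96), Ifit1 (-2.97 ± 0.95), Bst2 (-2.29 ± 0.52) and Irf7 (-2.22 ± 0.70) were among the 16. Leaving out a library moved these 16 to 6 without the third D/KO day 0 plus VC library, to 8 without the first WT day 0 plus VC or the third WT day 0 library, and to 10 without the first D/KO or the second WT day 0 library. Ifit2 was not called without the third D/KO day 0 or the first D/KO day 0 plus VC library.

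**Figure D3:**
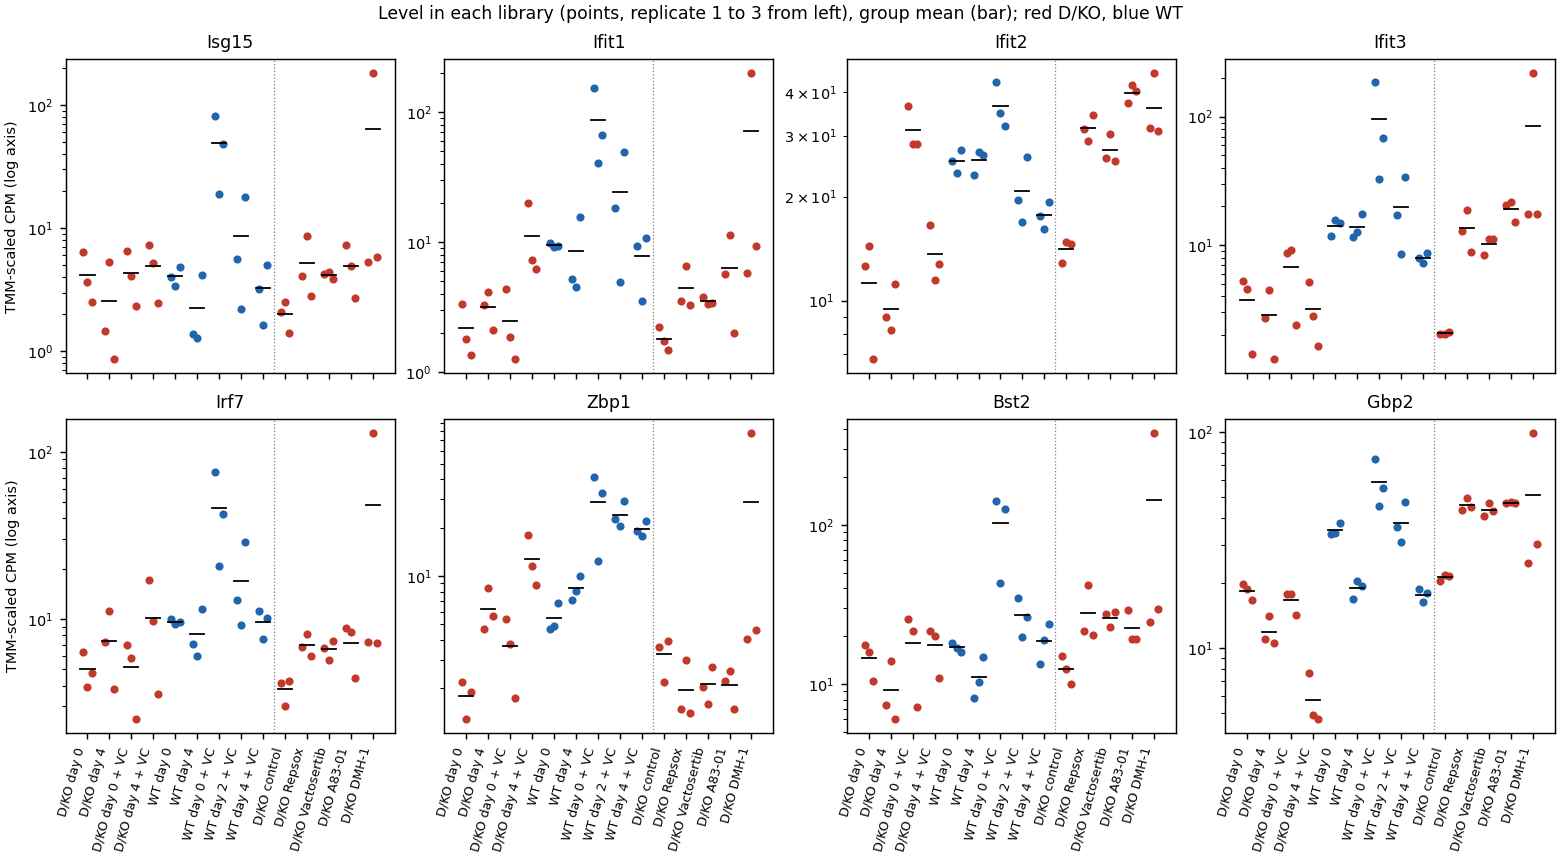
TMM-scaled CPM (log axis) of 8 members in 14 groups (x axis, reprogramming groups left of the dotted line), with 1 panel per gene, points for the 3 libraries in replicate order (red D/KO, blue WT) and a bar at the group mean. Isg15 and Ifit1 are highest in WT day 0 plus VC and in the second DMH-1 library, whereas Zbp1 also stays above WT day 0 in WT day 2 and day 4 plus VC.

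With reprogramming alone few members changed. In D/KO cells, Zbp1 and the ubiquitin ligase Trim25 (0.46 ± 0.11) rose at day 2 and no member fell (27.4% of all genes called), though Ifit2 was lower without the third day 0 library (-0.72 ± 0.18). At day 4 Oas2 and Zbp1 rose while Ddx58, Parp14 and Gbp2 fell (37% of all genes called). Zbp1 was at 2.19, 1.29 and 1.89 CPM at day 0, at 8.62, 8.70 and 7.36 CPM at day 2 and at 4.67, 8.41 and 5.61 CPM at day 4, with every later library above every day 0 library. Its log2 fold changes were 2.20 ± 0.37 at day 2 and 1.80 ± 0.38 at day 4. Oas2 read 0.193, 0.235 and 0 CPM at day 0 and 2.39, 5.17 and 2.70 CPM at day 4 (4.53 ± 0.94, adjusted p = 0.000175).

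The 3 members that fell in D/KO at day 4 fell by less than 1 log2 unit, and without the third day 0 library 5 fell. Ddx58 (RIG-I) was at 45.3, 49.2 and 44.5 CPM at day 0 and at 27.7, 30.8 and 24.3 CPM at day 4 (-0.75 ± 0.22), Parp14 changed by -0.64 ± 0.25 and Gbp2 by -0.62 ± 0.19. Isg15 was at 1.46, 5.33 and 0.863 CPM at day 4, a range that overlapped day 0. Oas3 was at 0 counts in all 3 D/KO day 0 libraries and gave 8 counts over the day 2 group and 11 over the day 4 group. Against a floor of 3 counts over day 0 these are 2.49-fold and 3.24-fold, with no allowance for counting error. It was not called at either time. The median member change was -0.19 at day 2 and 0.11 at day 4. Among marker sums in D/KO, fibroblast went from 79374 to 118355 CPM at day 0 to 50911 to 53137 CPM at day 2 and 36986.5 to 38581 CPM at day 4. Endothelial sums were 557 to 626, 443 to 504 and 305 to 331 CPM at these days. Keratinocyte sums were 2.00 to 3.29, 12.9 to 21.8 and 41.6 to 57.7 CPM. The part of these markers in the ISG changes was not tested.

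In WT cells no member was called at day 2 by edgeR's quasi-likelihood test (1 at an unadjusted p under 0.05, and none by DESeq2, which gave 2 no adjusted p), where 10.6% of all genes were called. At day 4 Gbp2 (-0.90 ± 0.18, adjusted p = 0.000263) and Ifi27 (-0.69 ± 0.22, adjusted p = 0.0169) fell and none rose, with 24.5% of all genes called. Without the second day 0 library, or the first or second day 4 library, 1 of them was called. Gbp2, an interferon-induced GTPase, was at 33.8, 33.9 and 37.6 CPM at day 0 and 16.8, 20.4 and 19.3 CPM at day 4, without overlap. Zbp1 was at 4.69, 4.88 and 6.84 CPM at day 0 and at 7.06, 8.05 and 9.98 CPM at day 4 in WT (0.61 ± 0.32, adjusted p = 0.168). Endothelial sums in WT went from 14.5 to 17.2 CPM at day 0 up to 95.2 to 95.7 CPM at day 4. Fibroblast sums went from 51454 to 53259 CPM down to 45294 to 47518 CPM, and macrophage sums from 82.4 to 155 CPM down to 62.9 to 76.4 CPM. The part of these markers in the WT changes was not tested. The day 4 change did not differ between D/KO and WT for any member by edgeR's test of the difference (3 at an unadjusted p under 0.05, none by DESeq2), against 14.3% of all genes.

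With VC, members of D/KO cells moved in both directions. From day 0 plus VC to day 4 plus VC, 11 members rose and 4 fell, which is 44.1% of the 34 tested against 54.1% of all genes called, and at day 2 plus VC 5 rose and 2 fell (47.4% of all genes). Without the first day 4 plus VC library 7 rose and 5 fell at day 4, and with at least 10 counts required in every library 4 rose and 3 fell among fewer members tested. Without the first day 0 plus VC or the third day 4 plus VC library 2 fell at day 4. At day 2, 3 rose without the third day 0 plus VC library, with 4 falling, or without the second day 2 plus VC library, with 5 falling. All 5 OAS family members rose at day 4: Oas2, Oas3 and Oas1a, which make the oligoadenylate messenger that activates RNase L, and their relatives Oasl1 (2.86 ± 0.95) and Oasl2 (1.84 ± 0.71). Oas2 was at 0, 0.0753 and 0 CPM at day 0 plus VC, at 6.66, 10.2 and 2.13 CPM at day 2 plus VC and at 19.5, 13.0 and 2.00 CPM at day 4 plus VC. These are 641 counts against 1 at day 4, a ratio of 493 (95% counting interval 88.2 to 19509), and 326 counts against 1 at day 2, a ratio of 269 (48.0 to 10668). Oas1a gave 82 counts against 2 (ratio 31.5, interval 8.46 to 265) and Oas3 90 against 2 (ratio 34.6, interval 9.31 to 290), all intervals covering counting error only.

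Other D/KO members that rose by day 4 plus VC were Cmpk2 (2.46 ± 0.77), the ISG15 protease Usp18 (2.34 ± 0.88), Ifit1 (2.14 ± 0.66), Zbp1 (1.80 ± 0.34), Ifih1 (1.13 ± 0.31) and Trim25 (0.66 ± 0.11). At day 2 plus VC the largest called changes beside that of Oas2 were in Zbp1 (2.50 ± 0.33), Ifih1 (0.92 ± 0.31), Ifit2 (-1.18 ± 0.19) and Gbp2 (-0.72 ± 0.19), with Ifi35 and Trim25 also higher. Zbp1 went from 5.44, 3.76 and 1.75 CPM to 24.02, 21.9 and 16.4 CPM at day 2 and 18.01, 11.6 and 8.79 CPM at day 4. Ifit1 was at 4.34, 1.88 and 1.26 CPM at day 0 plus VC and 19.97, 7.24 and 6.26 CPM at day 4 plus VC, and the first library was the highest in both groups. Gbp2 (-1.53 ± 0.20), Ifit2 (-1.19 ± 0.18), Ifi27 (-0.70 ± 0.22) and Ddx58 (-0.52 ± 0.22) fell.

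Several canonical ISGs were not among the members that rose. Isg15 was at 7.24, 5.18 and 2.47 CPM at day 4 plus VC, against 6.54, 4.07 and 2.31 CPM at day 0 plus VC (0.20 ± 0.69), and Irf7 did not pass either (0.98 ± 0.50, adjusted p = 0.0998). Keratinocyte markers rose in the same D/KO libraries, from a range of 3.61 to 4.40 CPM summed at day 0 plus VC to one of 292 to 428 CPM at day 4 plus VC, with 3 of the 4 tested called higher and 1 lower. Endothelial sums went from a range of 189 to 226 CPM to one of 378 to 510 CPM, with 2 genes called higher and 2 lower, and fibroblast sums from 182952 to 252416 CPM down to 32853 to 34039 CPM, with 6 of 8 called lower. The part of these markers in the ISG changes was not tested. Against day 0 without VC, 10 D/KO members rose and 3 fell at day 4 plus VC (52.1% of all genes) and 6 rose and 3 fell at day 2 plus VC (46.6%), with Oas2, Zbp1, Ifih1 and Trim25 among those higher and Gbp2 among those lower at both times.

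**Figure D4:**
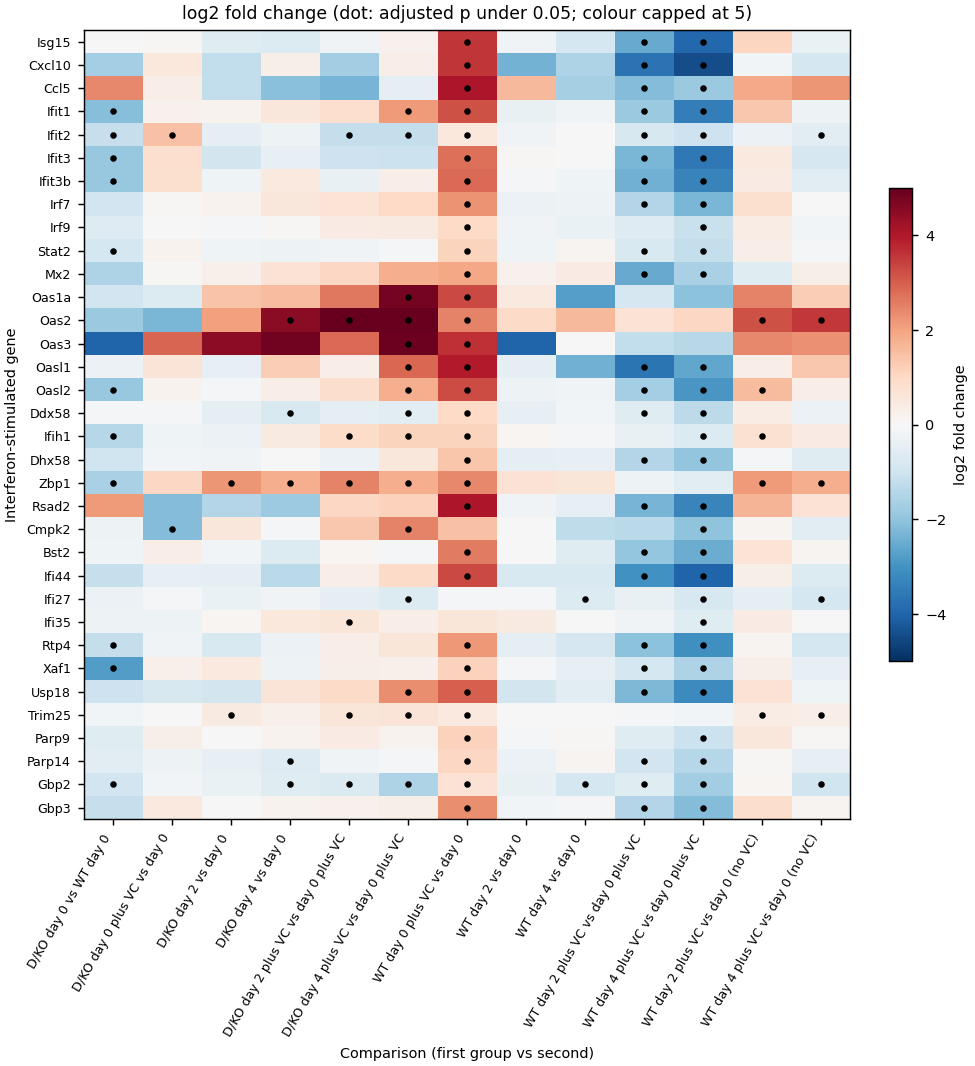
Log2 fold changes of the 34 tested members (rows) in the reprogramming comparisons (columns, first group against second), as colour from blue (lower) to red (higher), capped at 5 in either direction, with a black dot where the adjusted p was under 0.05. The WT day 0 plus VC column is red with 31 dots and the WT day 4 plus VC column against day 0 plus VC blue with 29, and the D/KO day 4 plus VC column holds 11 dots on red and 4 on blue.

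In WT cells with VC the starting group was the one with the raised set, so the direction of the reprogramming comparison depended on the baseline. From day 0 plus VC, 23 members fell and none rose at day 2 (27.5% of all genes), and 29 fell and none rose at day 4 (44.7%), with Cxcl10 in both counts through the filter, as above. Marker sums moved over the same days without overlap between day 0 plus VC and day 4 plus VC. Fibroblast sums went from 154768 to 170525 CPM down to 60388 to 71445 CPM, macrophage sums from 74.3 to 125 CPM down to 50.4 to 54.6 CPM, endothelial sums from 4.67 to 7.07 CPM up to 98.0 to 116 CPM and keratinocyte sums from 2.52 to 3.92 CPM up to 9.81 to 11.4 CPM, and their part in the ISG changes was not tested. The largest falls at day 4 were in Cxcl10 (-4.43 ± 0.93), Ifi44 (-4.01 ± 0.79), Isg15 (-3.91 ± 0.68), Ifit3 (-3.59 ± 0.51) and Ifit1 (-3.46 ± 0.58). Isg15 was at 5.64, 2.20 and 17.9 CPM at day 2 plus VC and at 3.19, 1.64 and 4.999 CPM at day 4 plus VC, the last range overlapping that of day 0 without VC. The largest falls at day 2 were in Cxcl10 (-3.70 ± 0.88), Oasl1 (-3.64 ± 0.92), Ifi44 (-3.01 ± 0.74), Isg15 (-2.53 ± 0.62) and Mx2 (-2.52 ± 0.69). Without the first WT day 0 plus VC library, 8 members fell at day 2, a share near the 23.4% of all genes called in that fit, and 22 fell at day 4 (38% of all genes). Without the second day 2 plus VC library 11 fell at day 2.

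Measured against day 0 without VC, 5 members rose and none fell in WT at day 2 plus VC (37.3% of all genes), and 3 rose and 3 fell at day 4 plus VC (39.3%). The risers at day 4 were Oas2 (3.52 ± 0.71), Zbp1 (1.83 ± 0.31) and Trim25 (0.34 ± 0.11), and Oasl2 (1.57 ± 0.59) and Ifih1 (0.75 ± 0.27) joined them at day 2. Oas2 was at 0.221, 0.268 and 1.07 CPM in WT day 0 and at 5.05, 5.65 and 7.69 CPM in WT day 4 plus VC. Zbp1 was at 19.0, 17.7 and 22.0 CPM in WT day 4 plus VC, above all 3 day 0 libraries. Gbp2 (-0.997 ± 0.18), Ifi27 (-0.89 ± 0.22) and Ifit2 (-0.52 ± 0.18) fell. Oas2, Zbp1 and Trim25 were thus higher and Gbp2 and Ifi27 lower at day 4 plus VC than at day 0 without VC in both lines.

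The change from day 0 plus VC to day 4 plus VC was more positive in D/KO than in WT for 29 of 34 members and more negative for none, by edgeR's test of the difference (29.4% of all genes called), Cxcl10 among them through the filter. Oas2 (7.52 ± 1.47), Oas1a (6.83 ± 1.56), Oas3 (6.31 ± 1.60), Ifit1 (5.60 ± 0.86) and Usp18 (5.53 ± 1.12) had the largest differences. With day 0 without VC as the baseline, 2 members differed, Ifit1 (2.64 ± 0.88) and Ifit2 (0.79 ± 0.26), against 20.8% of all genes. Both contrasts share the day 4 plus VC libraries, and only the day 0 libraries were exchanged.

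At day 0 without VC, 11 members were lower in D/KO than in WT and none was higher, with 43.2% of all genes called and a median member log2 difference of -0.98. Xaf1, a pro-apoptotic ISG, was at 6.32, 6.10 and 3.77 CPM in D/KO and 34.2, 39.2 and 39.9 CPM in WT (-2.81 ± 0.35, adjusted p = 3.32e-08). Ifit1 (-2.13 ± 0.67), Ifit3 (-1.91 ± 0.54), Oasl2 (-1.90 ± 0.71) and Ifit3b (-1.90 ± 0.61) followed, all lower in D/KO. Ifit3 and Ifit3b are near-identical copies on chromosome 19, so reads could be split between them. Without the third D/KO library 6 members were lower and Ccl5 was higher (2.91 ± 1.03). Rtp4 (-1.18 ± 0.48), Zbp1, Ifih1, Ifit2, Gbp2 and Stat2 were also lower. Isg15 did not differ by the test (0.02 ± 0.69), and its ranges of 2.53 to 6.38 CPM in D/KO and 3.38 to 4.85 CPM in WT overlapped.

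Markers of other cell types differed in the same contrast. Of 8 macrophage genes 7 were lower in D/KO, with sums of 17.6 to 18.8 CPM in D/KO and 82.4 to 155 CPM in WT, and all 5 endothelial genes were higher. The pan-leukocyte gene Ptprc was at 0.236 to 0.469 CPM in D/KO and 0.561 to 2.37 CPM in WT. The part of these markers in the ISG difference was not tested. In the inhibitor table, where the labels of both genotypes name no 4FJ allele and macrophage sums were 14.1 to 18.7 CPM in D/KO and 13.5 to 17.0 CPM in WT, untreated D/KO cells had 3 members lower than WT tail tip and 1 higher (40.2% of all genes called). Other markers differed in that contrast too, with endothelial sums of 259 to 301 CPM in D/KO and 59.4 to 76.9 CPM in WT, Schwann cell sums of 7.37 to 10.1 and 3.99 to 4.69 CPM, and melanocyte sums of 1.23 to 1.76 and 3.58 to 4.38 CPM, and their part was not tested. Oasl2 was at 2.04, 1.71 and 1.83 CPM in D/KO and 15.5, 10.3 and 9.59 CPM in WT (-2.65 ± 0.99), Gbp2 differed by -1.02 ± 0.34 and Ifi35 by -0.95 ± 0.37, while Ifit2 was higher in D/KO (0.72 ± 0.16). Leaving out any of the untreated D/KO libraries, or the first or the third WT library, left 1 or 2 members called. Leaving the second DMH-1 library out of the fit, a choice made after seeing the data, 14 members were lower and 1 higher in D/KO (38.8% of all genes called), Isg15 among the lower ones (-1.98 ± 0.44).

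The second DMH-1 library had the highest summed member level of all 60 libraries. Isg15 was at 5.33, 180 and 5.83 CPM in the 3 DMH-1 libraries, Ifit1 at 5.80, 198 and 9.31, Ifit3 at 17.6, 217 and 17.4, Bst2 at 24.5, 378 and 29.7, Irf7 at 7.24, 129 and 7.17 and Zbp1 at 4.07, 77.5 and 4.63 CPM. It was the highest of its group for 30 of 31 tested members, where 33.7% of all genes were highest in it. The exception was Ifi27, at 156, 107 and 149 CPM. The values of the other 2 libraries lay close to each other in each of these genes.

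The genes that stood out in that library were counted over the whole table. Of 15164 genes, 73 were over 4-fold above the mean of the other 2 DMH-1 libraries (pseudocount 0.1 CPM), of which 23 were members and 22 were on a list of 50 other interferon-induced genes (48 tested). Ifnb1 had no count in any DMH-1 library. Of the immune cell markers, macrophage genes gave sums of 17.6, 14.5 and 18.1 CPM and T cell genes sums of 2.51, 1.95 and 2.69 CPM. Endothelial sums were 319 to 388 CPM in the 3 DMH-1 libraries against 259 to 301 CPM in the untreated cells, with 2 of 5 genes called higher with or without the second library, and Schwann cell sums 12.3 to 15.3 CPM against 7.37 to 10.1 CPM, and their part in the changes with DMH-1 was not tested.

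With all 3 DMH-1 libraries, 24 of 31 members were higher than in untreated D/KO cells and none lower (9.75% of all genes called), led by Ifit3 (5.34 ± 0.83), Ifit1 (5.28 ± 1.12), Oasl2 (5.20 ± 1.04), Ifi44 (5.01 ± 1.33) and Usp18 (4.99 ± 1.23). Without the second library, 7 members were higher and none lower (6.24% of all genes), and the median member change dropped from 2.95 to 0.82. These 7 were Ifit3 (3.08 ± 0.29), Oasl2 (1.84 ± 0.32), Ifit3b (1.56 ± 0.40), Ifit2 (1.16 ± 0.14), Bst2 (1.12 ± 0.31), Ifih1 (0.95 ± 0.14) and Irf9 (0.49 ± 0.12). Leaving out an untreated library instead left 10 or 11 members higher. Ifit3 was at 2.04, 2.05 and 2.12 CPM in the untreated cells, below all 3 DMH-1 libraries.

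Each of the 3 TGFb receptor inhibitors raised 3 to 5 members, and none lowered a member. Repsox raised Ifit3 (2.70 ± 0.79), Ifit2 (1.16 ± 0.16) and Gbp2 (1.11 ± 0.34), with 25.2% of all genes called. Vactosertib raised Ifit3 (2.31 ± 0.80), Gbp2 (1.05 ± 0.34) and Ifit2 (0.96 ± 0.16), with 22.1% of all genes called. A83-01 raised Ifit3 (3.19 ± 0.79), Cmpk2 (2.10 ± 0.72), Ifih1 (1.64 ± 0.48), Ifit2 (1.5 ± 0.16) and Gbp2 (1.15 ± 0.34), with 32.6% of all genes called. Without any of the untreated libraries 1 member was called for Repsox and 1 for Vactosertib, as without any of the Vactosertib libraries, and without the second untreated library 3 were called for A83-01.

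Ifit3 and Ifit2 kept well clear of the untreated cells in every inhibitor library. Ifit3 was at 12.9, 18.8 and 8.76 CPM with Repsox, 8.31, 11.2 and 11.2 with Vactosertib and 20.5, 21.6 and 15.04 with A83-01, against at most 2.12 CPM in the untreated cells. Ifit2, an RNA-binding IFIT protein, was at 12.9, 14.8 and 14.6 CPM untreated, 31.3, 28.9 and 34.4 with Repsox, 25.9, 30.3 and 25.4 with Vactosertib and 37.2, 42.2 and 40.5 with A83-01. Isg15 was at 2.09, 2.54 and 1.42 CPM untreated, 4.11, 8.56 and 2.83 with Repsox, 4.23, 4.38 and 3.86 with Vactosertib and 7.31, 4.88 and 2.70 with A83-01, and passed in none of the 3.

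The spread estimated for these genes depended on the second DMH-1 library, which entered the same fit. With that library left out of the fit, 14 members were higher with Repsox (24.2% of all genes), 10 with Vactosertib (21.2%) and 12 with A83-01 (31.5%), and none was lower. The standard error of Ifit3 under Repsox fell from 0.79 to 0.28. The added members included Isg15 under Repsox (1.34 ± 0.45) and A83-01 (1.28 ± 0.45), Oasl2 under all 3 inhibitors (1.17 to 1.37) and Bst2 under all 3 (0.84 to 1.17). Endothelial markers fell with A83-01, from 259 to 301 CPM summed in untreated cells to 119 to 153 CPM, with 3 of 5 called lower and 1 higher. Schwann cell markers rose from a range of 7.37 to 10.1 CPM to a range of 33.1 to 42.2 CPM, with all 4 tested called higher. Schwann cell sums were also above the untreated cells with Repsox (19.7 to 22.9 CPM, 4 of 4 called higher) and Vactosertib (14.8 to 21.5 CPM, 3 of 4). Fibroblast sums went from 78675 to 83838 CPM in untreated cells to 40284 to 47654 CPM with Repsox, 48621 to 52037 CPM with Vactosertib and 41982 to 44676 CPM with A83-01, with 4 of 8 genes called lower and 1 higher for each. Macrophage sums were 14.1 to 18.7 CPM untreated and 23.3 to 34.3, 19.6 to 36.8 and 20.9 to 30.4 CPM with the 3 inhibitors in the same order, with 2 of the 5 tested called higher for each. The part of these marker lists in the ISG changes was not tested.

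**Figure D5:**
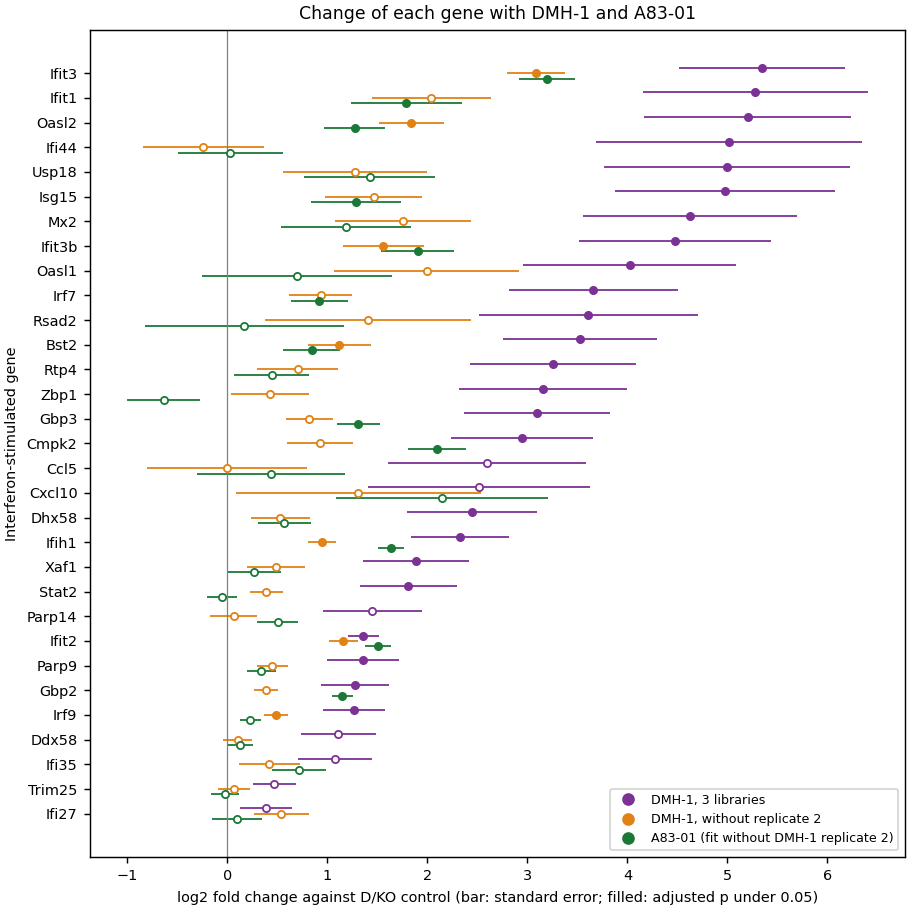
Log2 fold changes against untreated D/KO cells (x axis, bars for the standard error) of the 31 tested members (y axis) for DMH-1 with all 3 libraries (purple), DMH-1 without its second library (orange) and A83-01 in the fit without that library (green), filled where the adjusted p was under 0.05. The purple points lie farthest to the right with wide bars for most genes, whereas the 3 points of Ifit2 lie between 1.16 and 1.5.

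Compounds were compared at equal doses in 2 pairs, with p-values adjusted over all genes within each pair. At 0.1 µM, no member differed between Repsox and Vactosertib by edgeR's quasi-likelihood test (none at an unadjusted p under 0.05, and none by DESeq2, which gave 10 members no adjusted p), and 0% of 15164 genes did. The interval for Ifit2 ran from -0.12 to 0.52 on the log2 scale, and those for Trim25 (-0.48 to 0.43) and Ifi27 (-0.50 to 0.58) were also narrow. Intervals for Isg15 (-1.81 to 2.39) and Ifit1 (-1.83 to 2.49) were too wide to show that the inhibitors act alike on them. At 1 µM, 19 members were lower with A83-01 than with DMH-1 and none higher (25.4% of all genes), led by Ifi44 (-4.98 ± 1.29), Oasl2 (-3.93 ± 0.94), Zbp1 (-3.79 ± 0.86), Isg15 (-3.69 ± 0.99) and Usp18 (-3.58 ± 1.07). Leaving out an A83-01 library gave 5 to 12 members. Without the second DMH-1 library none of the 31 was lower, the median member difference was -0.01, and 3 members that had not been called became higher with A83-01, Cmpk2 (1.17 ± 0.31), Gbp2 (0.76 ± 0.12) and Ifih1 (0.69 ± 0.14), against 19.8% of all genes.

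Between untreated WT fibroblasts of skin and tail tip, Cmpk2 (-3.02 ± 0.90), Irf9 (-1.39 ± 0.36) and Gbp2 (-0.88 ± 0.33) were lower in skin and none higher (34.2% of all genes). Marker sums differed there as well, at 131 to 216 CPM in skin and 59.4 to 76.9 CPM in tail tip for endothelial, 11.3 to 12.3 and 3.99 to 4.69 CPM for Schwann cell, and 2.72 to 4.33 and 0.349 to 0.535 CPM for T cell markers, and their part was not tested. The first skin library stood apart, with a fibroblast marker sum of 81795 CPM against 146502 and 156916 CPM in the others. The treatment of the group labelled TGFB is not clear from its label, and with no matched control it is given as levels only. Its summed member levels were 177, 345 and 181 CPM, and Isg15 was at 0.921, 5.34 and 2.38 CPM. The second library was the highest for 24 of 31 members, against 35.9% of all genes.

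The interferon genes that would start the response were near the limit of detection. None of 21 interferon ligand genes passed the filter, and their counts summed to 0 to 10 per library in all 60 libraries. Ifnb1, the type I interferon known from fibroblasts, had a count in 1 library, and 3 counts correspond to 0.098 to 0.181 CPM, so lower levels would not be seen. The receptor genes Ifnar1 and Ifnar2 were expressed throughout, at 77.8 to 83.3 and 39.7 to 42.7 CPM in WT day 0. With VC at WT day 0, Ifnar1 did not pass (-0.08 ± 0.10) and Ifnar2 rose by 0.52 ± 0.12. The other receptor genes Il10rb (0.40 ± 0.14), Ifngr1 (0.36 ± 0.12) and Ifngr2 (0.26 ± 0.10) rose as well. Among the kinases, Jak1 fell (-0.38 ± 0.08), and Tyk2 (-0.12 ± 0.13) and Jak2 (-0.24 ± 0.13) did not pass, nor did the receptor gene Ifnlr1 (-0.56 ± 0.77).

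The same contrasts were read in lists of other genes. Of 48 tested genes on the list of other interferon-induced genes, 33 rose and none fell in WT with VC at day 0 (29.4% of all genes called), led by Iigp1 (3.26 ± 0.79), Slfn8 (3.23 ± 0.91) and Ifi207 (3.20 ± 0.39). With DMH-1 29 rose and none fell (9.75% of all genes), led by Iigp1 (5.91 ± 1.32), and without the second DMH-1 library 11 rose and none fell (6.24%). In WT from day 0 plus VC to day 4 plus VC 30 fell and 1, Ifitm1, rose (5.15 ± 0.36), where 44.7% of all genes were called. In D/KO over the same days 13 rose, such as Gbp4 (2.78 ± 0.80), Ifitm1 (2.72 ± 0.40) and Trim30a (2.26 ± 0.73), and 9 fell, where 54.1% of all genes were called. Negative regulators of the pathway rose with VC in WT for 4 of 8 tested genes, Socs1 (1.51 ± 0.17), Socs3 (1.24 ± 0.14), Adar (0.72 ± 0.14) and Samhd1 (0.45 ± 0.08), and none fell. Of 12 genes for upstream sensing, 3 rose and none fell, a share below the 29.4% of all genes called in that comparison, Tlr3 (1.19 ± 0.21), Sting1 (0.79 ± 0.11) and Ticam1 (0.67 ± 0.16).

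NF-kB response genes, listed as a contrast, did not move as a block with the ISGs. In WT with VC at day 0, 3 of 11 tested rose and 4 fell (29.4% of all genes called), with Icam1 at 1.80 ± 0.18, Lif at 1.47 ± 0.25 and Cxcl1 at -1.31 ± 0.37. With DMH-1, where 9.75% of all genes were called, Icam1 rose (0.56 ± 0.13) while Cxcl1 (-0.85 ± 0.17) and Cxcl5 (-0.58 ± 0.16) fell. Without the second DMH-1 library 1 gene rose and 1 fell (6.24% of all genes). In D/KO from day 0 plus VC to day 4 plus VC, 10 fell and 1 rose (54.1% of all genes called), with Cxcl2 at -3.69 ± 1.01, Cxcl5 at -2.74 ± 0.26 and Icam1 at -2.46 ± 0.19.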

How the data were processed

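Bulk RNA-seq counts per gene were deposited by the authors in a table of 36 reprogramming libraries and a table of 24 inhibitor libraries. Per the labels, polyA RNA was profiled. Per the study's methods, it was sequenced as paired 150 bp reads on a NovaSeq, trimmed with TrimGalore, aligned to GRCm39 with HISAT2 and counted with featureCounts. Tool versions and the strand setting are not given in the sources used here. From the deposited counts, levels were computed as CPM on TMM-scaled library sizes.

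Differences were tested with edgeR 4.0.16 in R 4.3.3 (quasi-likelihood F-test and TMM scaling, keeping genes by filterByExpr at its settings of 10 for the count and 15 for the total), with p-values adjusted by Benjamini-Hochberg over all genes tested and a threshold of 0.05. Values after ± are standard errors of log2 fold changes. The 36 reprogramming libraries shared a fit, as did 18 inhibitor libraries, without WT skin and the TGFB group. WT skin against tail tip was fitted on all 24. The pipeline was tested on simulated data. The 35 members and the other gene lists were chosen with earlier results of these data known. Named with a value or, at low counts, with a ratio of counts are, in each comparison, the called members with the 5 largest absolute log2 fold changes, library values for representatives of each role, and from other lists called genes with the 3 largest changes plus Ifnb1, Ifnar1 and Ifnar2. The remaining receptors and kinases of the pathway were named after their values were seen, and 1 gene of this rule is not reported here. Members outside this rule were named to account for small counts after their values were seen. DESeq2 1.42.0, its size factors, no filter, at least 10 counts in every library, other sets of libraries in the fit, another baseline and leaving out each library were tried as alternatives. The fits leaving aside the second DMH-1 library or the WT day 0 plus VC libraries and the difference between the lines in the response to VC at day 0 were chosen after seeing the data. The authors used DESeq2. Intervals for ratios of counts cover counting error only.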

Additional observations from a re-analysis of the deposited data

Results flagged for a closer look

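The change from day 0 plus VC to day 4 plus VC differed between D/KO and WT by a test of the difference itself for 29 of the 34 members tested, each with the more positive change in D/KO. Of all genes tested 29.4% were called, and Cxcl10 is among the 29 through the filter. Leaving out any of the libraries of the 4 groups in turn gave 22 to 30. With day 0 without VC as the baseline the count was 2, Ifit1 and Ifit2 (20.8% of all genes). The day 0 plus VC libraries of both lines enter the first contrast and not the second. Their summed member levels were 2004, 939 and 1469 CPM in WT, against 597 to 612 CPM without VC, and 507, 433 and 318 CPM in D/KO, against 346 to 442 CPM without VC. Taken line by line, the exchange of baseline moved the day 4 plus VC change in WT from a median of -1.91 (29 members lower, none higher, 44.7% of all genes called) to -0.10 (3 lower, 3 higher, 39.3%). In D/KO it moved from 0.51 (11 higher, 4 lower, 54.1%) to 0.47 (10 higher, 3 lower, 52.1%).

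The change with VC at day 0 also differed between D/KO and WT by a test of the difference, for 17 members (15.3% of all genes called), with 16 more negative in D/KO and Ifit2 more positive. Leaving out a library gave 7 to 22. This contrast shares the day 0 plus VC libraries of both lines with the one above.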

How the results depend on the processing

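No paired analysis was possible because the labels number the libraries of a group consecutively, without a number shared between groups that marks a culture or day, and replicate numbers here follow accession order.

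Counts of members called were within 1.5 times the reported value for all 22 comparisons with DESeq2 size factors in edgeR, for all 7 with all 24 inhibitor libraries in the fit, and for all 9 when the WT day 0 plus VC libraries were left aside, a fit chosen after seeing the data. With DESeq2, 12 members were called for A83-01 vs DMH-1 and 5 for Repsox vs control, in each of which it gave no adjusted p for 10 of the 31 members. For 15 tests of a member named in a comparison DESeq2 gave no adjusted p, and these were left out.

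With no filter on low counts, calls numbered 11 for control D/KO vs control WT, 6 for the D/KO change minus the WT change at day 4, 4 for D/KO day 0 plus VC vs day 0, 21 for D/KO day 0 vs WT day 0, 26 for the difference in the response to VC at day 0, 16 for D/KO day 2 plus VC, 8 for D/KO day 2, 10 for D/KO day 4, 5 each for Repsox and Vactosertib, 2 for WT day 2, 9 for WT day 4 and 8 for WT skin vs tail tip. With at least 10 counts in every library they numbered 16 for the difference of changes at day 4 plus VC, 10 for that in the response to VC at day 0, 1 for D/KO day 0 plus VC, 7 for D/KO day 4 plus VC, 18 for WT day 0 plus VC, 13 for WT day 2 plus VC and 18 for WT day 4 plus VC, with fewer members tested by construction. With only the groups compared in the fit they numbered 14 for A83-01, 12 for A83-01 vs DMH-1, 15 for control D/KO vs control WT, 3 for the difference of changes at day 4, 1 for D/KO day 0 plus VC, 19 for D/KO day 0 vs WT day 0, 11 for Repsox, 15 for Vactosertib, 2 for WT day 2, 10 for WT day 4 and 7 for WT skin vs tail tip. Without the second DMH-1 library in the fit, chosen after seeing the data, they numbered 12 for A83-01 (31.5% of all genes called), 15 for control D/KO vs control WT (38.8%), 14 for Repsox (24.2%) and 10 for Vactosertib (21.2%). The cause was not tested. For DESeq2, for the fits with other filters and for those with only the groups compared, the share of all genes called was not computed. For most fits with a library left out, given next, it was not computed either. Such counts show how far the calls move and cannot be set against a background.

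Leaving out a library gave 3 to 4 calls for A83-01, 3 to 25 for A83-01 vs DMH-1, 1 to 4 for control D/KO vs control WT, 0 for the difference of changes at day 4, 22 to 30 for that at day 4 plus VC, 7 to 22 for that in the response to VC at day 0, 1 to 2 for D/KO day 0 plus VC, 7 to 10 for D/KO day 0 vs WT day 0, 6 to 8 for D/KO day 2 plus VC, 2 to 3 for D/KO day 2, 12 to 16 for D/KO day 4 plus VC, 4 to 7 for D/KO day 4, 7 to 28 for DMH-1, 1 to 3 for Repsox, 0 for Repsox vs Vactosertib, 1 for Vactosertib, 25 to 33 for WT day 0 plus VC, 8 to 26 for WT day 2 plus VC, 0 for WT day 2, 22 to 31 for WT day 4 plus VC, 1 to 2 for WT day 4 and 2 to 3 for WT skin vs tail tip.

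With day 0 without VC as the baseline, 5 members were called for WT day 2 plus VC (37.3% of all genes called), 6 for WT day 4 plus VC (39.3%) and 2 for the difference of changes at day 4 plus VC (20.8%). Members that had fallen from day 0 plus VC then had positive log2 values in WT day 2 plus VC: Bst2 0.66, Ccl5 1.88, Ddx58 0.38, Gbp2 0.11, Ifi44 0.30, Ifit1 1.35, Ifit3 0.49, Irf7 0.81, Isg15 1.06, Oasl1 0.33, Oasl2 1.57, Parp14 0.070, Rsad2 1.70, Rtp4 0.14, Stat2 0.34, Usp18 0.74 and Xaf1 0.30. In WT day 4 plus VC these were Bst2 0.14, Ccl5 2.20, Ifih1 0.42, Oasl2 0.33 and Rsad2 0.73. Ifit2 in D/KO day 2 plus VC was at 0.29, and the difference for Rsad2 at day 4 plus VC was -1.73. With a library left out, log2 values of A83-01 minus DMH-1 ran from -2.33 to 0.040 for Dhx58, from -5.54 to 0.27 for Ifi44, from -2.63 to 0.11 for Ifit3 and from -4.13 to 0.15 for Usp18, and DMH-1 minus control ran from -0.24 to 5.58 for Ifi44, each sign turning without the second DMH-1 library. Genes under about 1 CPM, such as Rsad2, Ccl5 and the OAS genes at baseline, rested on few counts, which limits their precision.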
